A study of Mus musculus with 20 samples.

Results

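Pdgfra, Cspg4, Olig1, Olig2, Sox10, Gpr17, Bmp4, Enpp6 and Bcas1 mark the oligodendrocyte lineage of the brain, from its dividing precursor cells to newly formed oligodendrocytes. They were taken by name from count tables of mouse hypothalamus, where all 9 were found among 53801 genes, and all 9 were among the 22181 genes that passed a filter on low counts. The libraries were made from total RNA depleted of rRNA, in a study of mice that lack both Magel2 and Ndn as a model of Prader-Willi syndrome. KO is this double deletion (double ko, MADIN), which the genotype field of the labels calls a knockdown, and WT is C57BL/6J. The mice lived in 12 h of light and 12 h of dark and were killed by day, 6 h after the lights came on, or at night, 18 h after it. The groups are KO_day, WT_day, KO_night and WT_night, with 5 libraries each. The age and sex of the mice and the strain background of the KO line are not given in the sources used here. Whether the 5 libraries of a group are 5 animals is not stated in the labels, and p-values here rest on the variation among libraries, some of which may be technical.

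Oligodendrocyte precursor cells are spread through the grey and white matter of the adult brain, where they keep dividing and give rise to myelinating oligodendrocytes. PDGF, acting on the receptor encoded by Pdgfra, drives their division and survival, while BMP and Notch signals hold back their maturation. As precursors commit, they pass through a short stage marked by Gpr17 and Bmp4, then through an early oligodendrocyte stage marked by Enpp6 and Bcas1, before they make compact myelin. Olig1, Olig2 and Sox10 encode transcription factors that remain in use along this path.

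Promoter sequence is shown for the 2 genes of precursor cell surface proteins, Pdgfra and Cspg4, and for Olig2, the member that with Cspg4 had the smallest p for night against day in KO. Each is the stretch of up to 250 bases ahead of the RefSeq start (GRCm38.p6), 5′ to 3′ on the strand of the gene. Bases past the GENCODE M21 start were left out. The windows of Cspg4 and Olig2 are shorter for this reason and end at the GENCODE start, while that of Pdgfra ends ahead of it. Capitals mark CATCTG, one of 6 motifs searched on both strands.
Pdgfra (chr5:75152001-75152250, plus strand): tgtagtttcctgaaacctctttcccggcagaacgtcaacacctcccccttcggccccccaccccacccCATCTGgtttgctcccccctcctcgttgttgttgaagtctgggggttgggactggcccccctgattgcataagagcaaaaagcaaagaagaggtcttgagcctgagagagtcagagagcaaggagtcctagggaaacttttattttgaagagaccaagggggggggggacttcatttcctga
Cspg4 (chr9:56864854-56865032, plus strand): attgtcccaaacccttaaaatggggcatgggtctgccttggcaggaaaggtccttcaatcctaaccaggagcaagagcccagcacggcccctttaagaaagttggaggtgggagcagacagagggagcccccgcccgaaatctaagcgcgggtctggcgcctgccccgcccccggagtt
Olig2 (chr16:91225300-91225456, plus strand): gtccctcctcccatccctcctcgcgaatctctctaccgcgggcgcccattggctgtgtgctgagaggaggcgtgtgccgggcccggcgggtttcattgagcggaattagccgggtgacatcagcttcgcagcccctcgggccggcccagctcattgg
The motifs were an E-box, CACGTG, a further E-box of the letters CAGCTG, another of the letters CATCTG, the SOX-type motif ACAAAG with its variant form ACAATG, and the TATA box, TATAAA. The first pair of E-boxes reads the same on both strands, and no motif overlaps another in the windows shown. The Pdgfra window held CATCTG, which 14.5% of 27025 promoter windows of 250 bases also hold. The windows of Cspg4 (179 bases) and Olig2 (157 bases) held none of the 6, where windows of these lengths held CATCTG in 10.8% and 9.56% of genes. A match is a description of letters and not of binding.

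Library totals ran from 32066289 to 48697647 counts, and levels are given as CPM scaled by TMM factors. Both deleted genes were low in all 10 KO libraries, Ndn at 0.248 to 1.01 CPM and Magel2 at 0 to 0.182 CPM, against 239 to 346 and 15.6 to 19.5 CPM in 9 of the WT libraries. The library labelled WT_day 3 lay between these ranges, with 31.0 CPM of Ndn and 2.16 CPM of Magel2, above every KO library and below the other WT libraries. Time follows the sample titles, and in 6 libraries (KO_day 1, KO_day 2, KO_night 1, 2 and 3, and WT_night 1) the time field of the labels says the opposite. WT_night 1, 2 and 3 had the lowest scores on the first principal component (-22.7, -16.8 and -34.6), followed by KO_day 2 at -15.8, while the others lay between -9.23 and 33.7. Hypothalamic genes were present in every library (Nkx2-1 at 6.13 to 8.25 CPM, Pmch at 210 to 343 CPM). The summed level of 10 such genes was 1020 to 1240 CPM in KO_night and 747 to 984 CPM in WT_night. By day it was 971 to 1170 CPM in KO_day and 924 to 1090 CPM in WT_day. Abundant peptide genes weigh most in this sum. Oxt had 249 to 335 CPM in KO_night and 155 to 199 CPM in WT_night, and Avp 237 to 305 and 150 to 234 CPM. Otp, a low gene of the same list, had 6.96 to 9.06 CPM in KO_night and 5.84 to 7.40 CPM in WT_night. At night 9 of the 10 genes were higher in KO and 2 rose (11.9% of all genes passed), and averaged over both times 3 rose (1.31%). These calls were not checked with other settings or with libraries left out. Of 4 thalamus genes, 3 were higher in KO at night and 1 fell. The part of these differences in the other night changes was not tested. The pituitary hormone Gh varied from 2.12 to 656 CPM.

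All 9 genes were detected in every library, at 30 counts (Bmp4 in KO_day 3) or more. Per kilobase of exon, Olig1 had the highest median level over the 20 libraries, 32.9 CPM per kb (27.2 to 37.9), and Bcas1 came next at 15.6 (13.5 to 17.8). Neither overlapped its neighbour in this order. Olig2 (median 7.76), Gpr17 (7.25), Sox10 (6.10) and Pdgfra (5.30) followed with ranges that overlap from one to the next. Cspg4 (1.44), Enpp6 (1.09) and Bmp4 (0.938 CPM per kb of exon) formed the low end, again with overlapping ranges. The order depends on the length used, because Bcas1 spans 80.9 kb with 3.77 kb of exon and falls to a mean of 0.732 CPM per kb of span, while Olig1, whose exon fills its whole span of 2.16 kb, stays at 32.7.

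Spread within groups also differed between the members. The pooled within-group coefficient of variation was 5.25% for Pdgfra, 6.66% for Bcas1, 7.01% for Olig1 and 7.95% for Cspg4. Sox10 (9.34%), Enpp6 (10.7%) and Olig2 (12.2%) lay above these. Gpr17 reached 16.3% and Bmp4 21.4%. For Bmp4 the counting error is 18.3% at its lowest count of 30, in KO_day 3, and smaller at its mean count of 78.0.

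**Figure D1:**
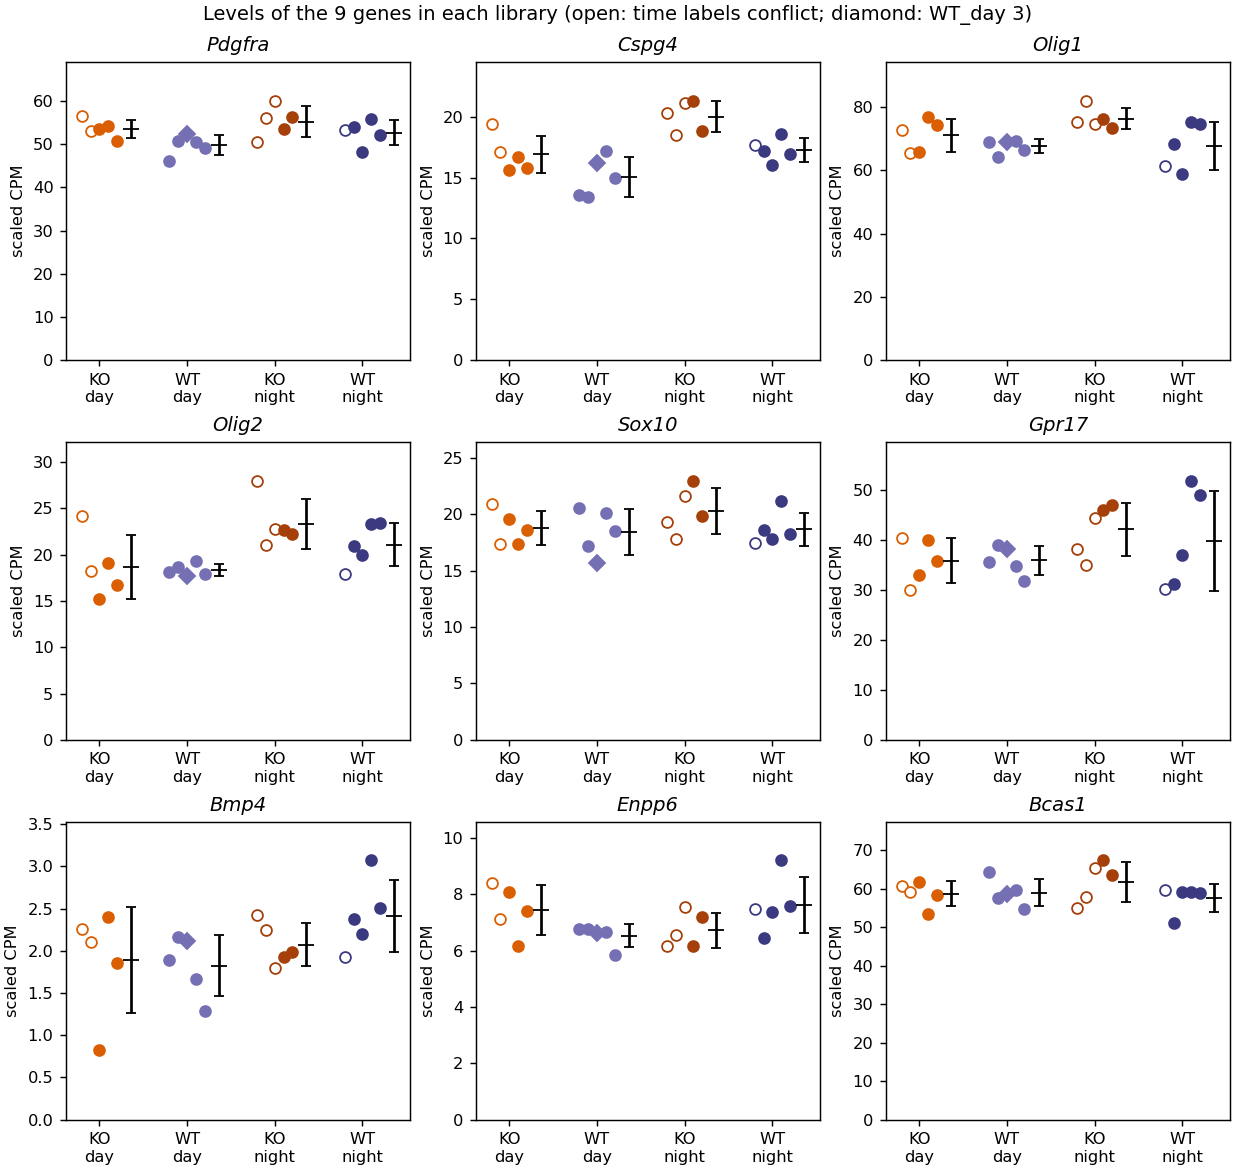
Scaled CPM (vertical axes, from 0) of the 9 genes in each of the 20 libraries, by group on the horizontal axes, with the mean and SD of 5 libraries beside the points. Open points are libraries whose 2 time labels conflict and the diamond is WT_day 3. For every gene the KO points overlap the WT points at both times, and the 3 KO_night libraries highest in Cspg4 reach 20.3 to 21.3 CPM.

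KO and WT differed little at these genes. Averaged over both times, 8 of the 9 were higher in KO and only Bmp4 was lower, with changes from -0.082 to 0.19 on the log2 scale and a median of 0.077, against a median of -0.0013 over all tested genes. None of the 9 passed an adjusted p of 0.05 in edgeR's quasi-likelihood test, where 1.31% of all tested genes did (291 genes, 0.789% higher and 0.523% lower). Cspg4, Olig1 and Pdgfra were the 3 members with an unadjusted p under 0.05, a level that 19.6% of all genes reached. DESeq2 called 1 member, Cspg4, among 894 of all genes, where edgeR called 291. By day no member passed, where 0.113% of all genes did (0.0631% higher and 0.0496% lower). Before adjustment 2 members had a p under 0.05, as had 9.62% of all genes, and DESeq2 called 0 members and 166 of all genes. At night 1 member passed, Cspg4, where 11.9% of all genes passed (5.18% higher and 6.77% lower). Neither between genotypes nor between times were the 5 libraries of one group all above or all below those of the other for any member. Of all tested genes, 2.72% had no such overlap between KO_day and WT_day, 5.06% between KO_night and WT_night, 2.51% between KO_night and KO_day and 5.32% between WT_night and WT_day, so 0 of 9 is near the background.

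**Figure D2:**
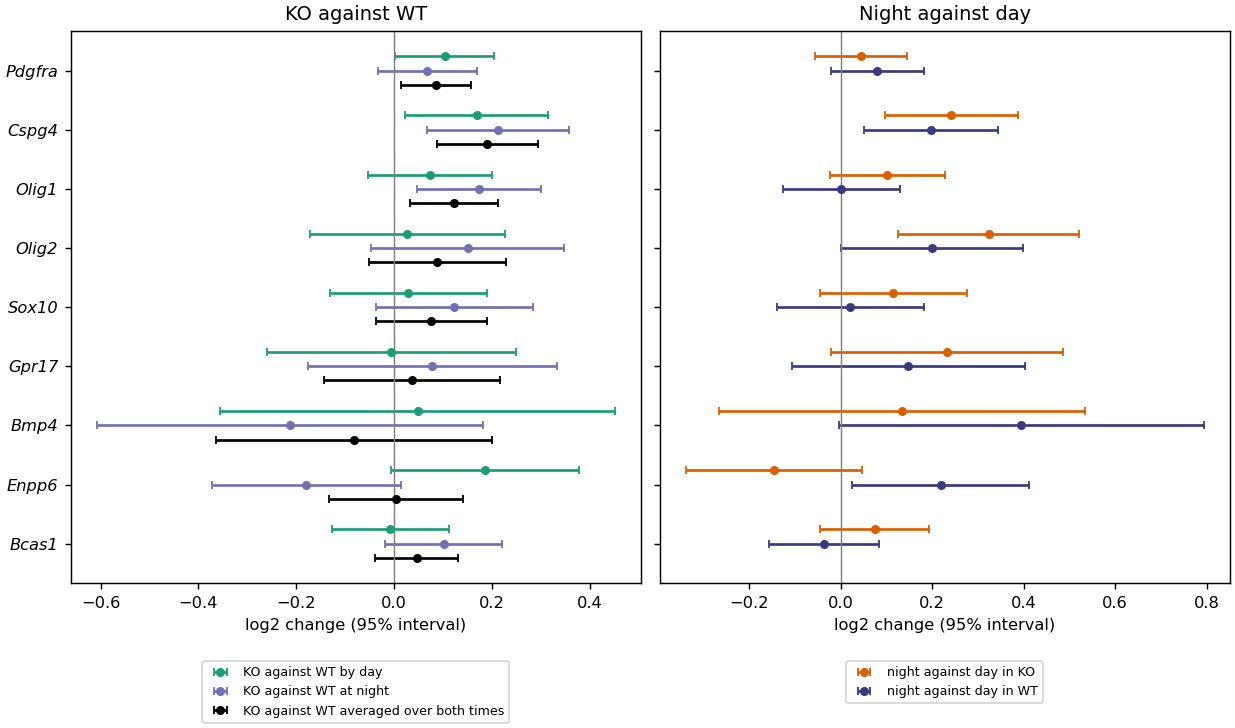
Log2 change with its 95% interval (horizontal axes) for each of the 9 genes (vertical axis), for KO against WT on the left and for night against day on the right, from edgeR's fit to all 20 libraries. The Cspg4 points lie to the right of 0 in all 5 contrasts, and Enpp6 has opposite signs by day and at night and in KO and WT.

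Cspg4 (ENSMUSG00000032911, chromosome 9, 56865033 to 56899870, plus strand) encodes the NG2 proteoglycan on the surface of precursors and of pericytes. It was the member with the largest genotype difference averaged over both times. At night the 5 libraries, in order of replicate number, had 20.3, 18.5, 21.1, 21.3 and 18.8 CPM in KO_night, against 17.7, 17.2, 16, 18.6 and 16.9 CPM in WT_night. The only overlap is that WT_night 4 lies just above KO_night 2. The means were 20.01 ± 1.29 CPM in KO_night and 17.3 ± 0.961 CPM in WT_night (SD, n = 5 each), and Cspg4 rose by 0.21 ± 0.0704 on the log2 scale (1.16-fold, adjusted p = 0.0494, edgeR). By day it averaged 16.9 ± 1.53 CPM in KO_day and 15.1 ± 1.64 CPM in WT_day, a change of 0.17 ± 0.0709 that did not pass (adjusted p = 0.438). The averaged change was 0.19 ± 0.05 (adjusted p = 0.0535). In bulk tissue a different number of NG2 cells and a different amount of RNA in each cell cannot be told apart, here and for every member.

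The night call of Cspg4 sits at the threshold. It held under DESeq2 (adjusted p = 0.0378) but not under RLE scaling (0.0528), without a filter on low counts (0.0564) or without WT_day 3 (0.0586). Nor did it hold when the 6 libraries with conflicting time labels were left out (0.401), when the time field set the groups (0.918) or without WT_night 1, 2 and 3 (0.545), although the change stayed positive, at 0.23, 0.16 and 0.18. The first of these 3 fits keeps only KO_night 4 and 5 of KO_night, and the last only WT_night 4 and 5 of WT_night. Fewer libraries can raise p by themselves, here and wherever these fits are named. Leaving out 1 library at a time gave adjusted p values from 0.0294 (without WT_night 4) to 0.156 (without WT_night 3), and the call held without WT_day 2, WT_day 4, WT_night 4, KO_day 1 or KO_night 5 but not without any of the other 15. The averaged change passed under DESeq2 (0.0178), without a filter on low counts and in 4 of the 20 fits that leave out 1 library. Because NG2 is also made by pericytes, markers of pericytes and smooth muscle were read beside it. At night 5 of these 10 genes were higher in KO and 5 lower, and 1 passed, Anpep, which fell by 0.73 (adjusted p = 0.0185, passing in 17 of the 20 fits that leave out 1 library, but 0.374 with agreeing time labels, 0.918 with the time field and 0.308 without WT_night 1, 2 and 3). Their summed level was 121 to 146 CPM in KO_night and 121 to 177 CPM in WT_night. Across libraries it moved with Cspg4 at r = 0.525 (rho = 0.444, adjusted 0.13 and 0.28, and r = 0.305 without the 2 libraries farthest from the list's median), and its part in the Cspg4 difference was not tested.

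Pdgfra (ENSMUSG00000029231, chromosome 5, 75152292 to 75198215, plus strand), the PDGF receptor alpha used as a marker of precursors, had the smallest spread within groups of the 9. Its RNA in bulk tissue was not assigned to a cell type. By day it had 56.5, 53.0, 53.5, 54.1 and 50.7 CPM in KO_day, against 46.2, 50.8, 52.4, 50.6 and 49.2 CPM in WT_day. KO_day lay higher, with KO_day 5 inside the WT range, and WT_day 3 was the highest of the WT libraries. At night it averaged 55.2 ± 3.58 CPM in KO_night and 52.7 ± 2.83 CPM in WT_night. The averaged change was 0.086 ± 0.0346 (1.06-fold, adjusted p = 0.171), with a 95% interval from 0.015 to 0.16.

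Olig1 (ENSMUSG00000046160, chromosome 16, 91269772 to 91271933, plus strand) encodes a bHLH factor needed for oligodendrocyte maturation and myelin repair. At night it had 75.3, 81.9, 74.7, 76.2 and 73.2 CPM in KO_night, against 61.2, 68.3, 58.9, 75.1 and 74.7 CPM in WT_night. The WT libraries split, with WT_night 4 and 5 within the KO range and WT_night 1, 2 and 3 below it. The change was 0.17 ± 0.0614 (adjusted p = 0.0638), and it passed when WT_night 4 (adjusted p = 0.0203) or WT_night 5 (0.0404) was left out. Without WT_night 1, 2 and 3 together it was 0.026 (adjusted p = 0.916). By day Olig1 averaged 71.0 ± 5.11 CPM in KO_day and 67.5 ± 2.19 CPM in WT_day. Without WT_night 4 the averaged change, 0.12 ± 0.0434 with all libraries (adjusted p = 0.125), also passed (0.0410).

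Olig2 (ENSMUSG00000039830, chromosome 16, 91225457 to 91228677, plus strand), the bHLH factor that specifies the lineage, lies on the same strand as Olig1, upstream of it. It had 28.0, 20.98, 22.8, 22.7 and 22.2 CPM in KO_night, against 17.9, 20.9, 20, 23.3 and 23.4 CPM in WT_night. By day it had 24.2, 18.2, 15.2, 19.1 and 16.7 CPM in KO_day, against 18.1, 18.7, 17.7, 19.3 and 17.9 CPM in WT_day. The KO libraries were more dispersed than the tight WT_day group (SD 3.41 against 0.629 CPM), and replicate 1 was the highest KO library at both times. The KO change was 0.15 ± 0.0956 at night (adjusted p = 0.298) and 0.027 ± 0.0965 by day (0.966).

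Sox10 (ENSMUSG00000033006, chromosome 15, 79154908 to 79165240, minus strand), the HMG-box factor that switches on myelin genes, averaged 20.3 ± 2.02 CPM in KO_night and 18.7 ± 1.48 CPM in WT_night. By day the means were 18.8 ± 1.52 CPM in KO_day and 18.4 ± 2.03 CPM in WT_day, and the lowest library was WT_day 3 at 15.7 CPM. The averaged change was 0.077 ± 0.0551 (adjusted p = 0.462).

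Gpr17 (ENSMUSG00000052229, chromosome 18, 31942997 to 31949636, minus strand), a G protein-coupled receptor of committed precursors, was the most variable of the well-counted members. At night it had 38.3, 35.0, 44.4, 46.0 and 47.0 CPM in KO_night, against 30.3, 31.2, 37.1, 51.9 and 49.04 CPM in WT_night. WT_night held both the lowest and the highest of these values, and the same 2 libraries that were highest in Olig1 were highest here. The change was 0.079 ± 0.123 at night (adjusted p = 0.702) and -0.0056 ± 0.123 by day, where KO_day averaged 35.9 ± 4.46 CPM and WT_day 35.96 ± 2.88 CPM. Without WT_night 1, 2 and 3 the night change turned to -0.26.

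The Gpr17 count runs with that of another gene. Gpr17 lies inside Lims2, a gene on the opposite strand that encodes an adaptor of integrin adhesions, and their exons overlap by 188 bases. In all 20 libraries Lims2 had at least the count of Gpr17, and the Gpr17 count equalled 81.0% to 87.5% of the Lims2 count. The Lims2 count increased by 1.12 ± 0.0318 for each Gpr17 count, and their deviations from the group means correlated at r = 0.995. The labels call the libraries strand-specific, but whether the counting used strand is not given in the sources used here. Lims2 exceeded Gpr17 by 199 to 358 counts, and without a stated strand setting the reads of these genes cannot be told apart here; sharing of reads was not tested. Bcas1 has 2 antisense genes within its span, Bcas1os2 with 24.9% to 30.7% of its count (r of deviations 0.817) and Bcas1os1 with 9.91% to 13.3% (0.762). The other overlapping genes had mean counts of 0 to 26.4 per library.

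Bmp4 (ENSMUSG00000021835, chromosome 14, 46383520 to 46390669, minus strand), a secreted BMP ligand that in mouse brain is made by committed precursors and also by vascular and meningeal cells, was the lowest member. At night it had 2.42, 2.24, 1.79, 1.93 and 1.98 CPM in KO_night, against 1.92, 2.38, 2.20, 3.07 and 2.51 CPM in WT_night. By day KO_day had 2.26, 2.10, 0.828, 2.40 and 1.86 CPM, and WT_day 1.89, 2.16, 2.11, 1.66 and 1.28 CPM. It was the only member lower in KO at night apart from Enpp6, by a change of -0.21 ± 0.191 that did not pass (adjusted p = 0.478), with a 95% interval from -0.61 to 0.18.

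Bmp4 followed fibroblast and meningeal genes from library to library. The summed level of Dcn, Lum, Col1a1, Col1a2, Col3a1, Slc6a13 and Ogn was 32.2 CPM in KO_day 3, which had the lowest Bmp4, and 129 CPM in WT_night 4, which had the highest. After subtraction of group means, Bmp4 correlated with the mean of these 7 genes at r = 0.908 and rho = 0.917 over 20 libraries (permutation p = 3e-05 and 1e-05, the second the smallest that 100000 permutations can give; 0.0024 and 0.0004 adjusted over 81 pairs of member and list). It remained at r = 0.81 without the 2 libraries farthest from the median of the list. All 7 genes were lower in KO at night, with a median change of -0.56, and 1 passed, Ogn, which fell by 0.88 (adjusted p = 0.0430, passing in 9 of 20 such fits, but 0.0589 under DESeq2, 0.328 with agreeing time labels, 0.918 with the time field and 0.412 without WT_night 1, 2 and 3). By day 6 of the 7 were higher in KO, with a median change of 0.093, and 0 passed in edgeR. In WT all 7 were higher at night than by day, with a median change of 0.54, and 0 passed in edgeR. The sum of the 7 genes was 51.0 to 82.8 CPM in KO_night and 81.9 to 129 CPM in WT_night. By day it was 32.2 to 116 CPM in KO_day and 54.8 to 79.9 CPM in WT_day. Its part in the Bmp4 values was not tested.

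**Figure D3:**
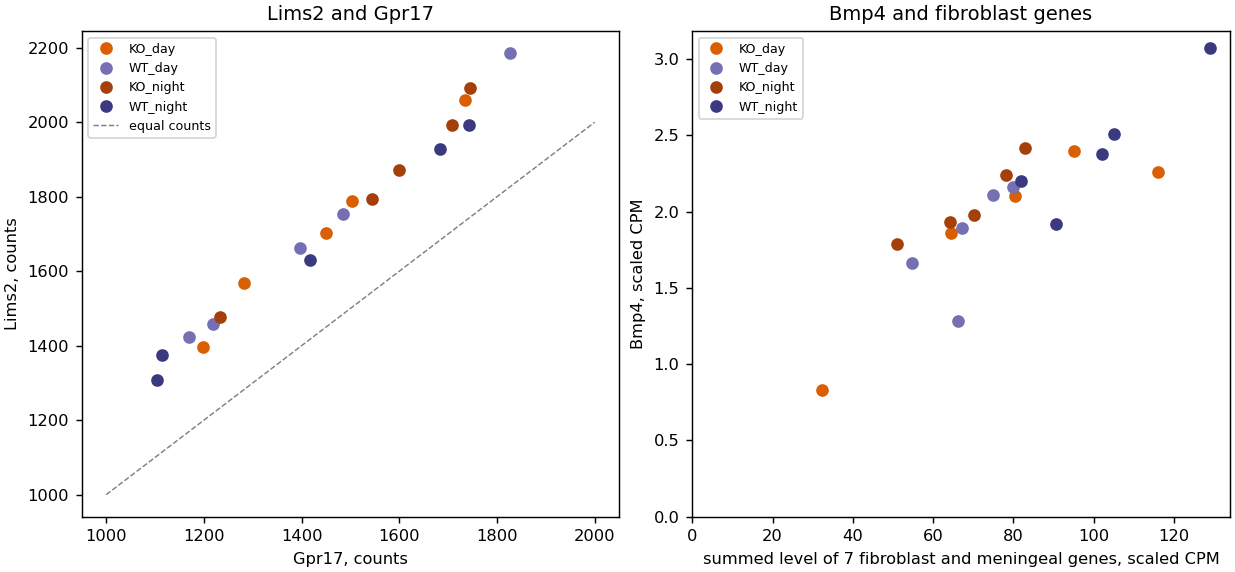
Left, raw counts of Lims2 (vertical axis) against those of Gpr17 (horizontal axis) in the 20 libraries, with a dashed line of equal counts. Right, scaled CPM of Bmp4 against the summed scaled CPM of 7 fibroblast and meningeal genes. All points on the left lie 199 to 358 counts above the line, and on the right KO_day 3 (0.828 CPM) and WT_night 4 (3.07 CPM) form the ends.

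Enpp6 (ENSMUSG00000038173, chromosome 8, 46986887 to 47096762, plus strand), a choline phosphodiesterase that marks newly forming oligodendrocytes, had KO changes of opposite sign by day and at night, and neither passed. By day it had 8.39, 7.13, 8.09, 6.15 and 7.41 CPM in KO_day, against 6.78, 6.77, 6.61, 6.66 and 5.83 CPM in WT_day. At night it had 6.17, 6.56, 7.54, 6.16 and 7.18 CPM in KO_night, against 7.48, 6.44, 7.36, 9.20 and 7.58 CPM in WT_night. KO was the higher group by day in all but KO_day 4, and the lower group at night with more overlap. The changes were 0.19 ± 0.0933 by day (adjusted p = 0.542) and -0.18 ± 0.0940 at night (0.203), and the averaged change was 0.0035 ± 0.0662.

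Bcas1 (ENSMUSG00000013523, chromosome 2, 170346991 to 170427845, minus strand), a protein of early myelinating oligodendrocytes, averaged 61.7 ± 5.15 CPM in KO_night and 57.5 ± 3.68 CPM in WT_night, and 58.6 ± 3.15 CPM in KO_day and 59.0 ± 3.49 CPM in WT_day. Its averaged change of 0.047 ± 0.0411 had a 95% interval from -0.038 to 0.13 (adjusted p = 0.557).

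Between the times, 8 of the 9 members were higher at night than by day in KO, with a median log2 change of 0.12, and 8 of 9 in WT, with a median of 0.15. All tested genes had medians of 0.0016 and 0.0049. No member passed in edgeR in either genotype, where 0.0721% of all genes passed in KO and 0.275% in WT. Before adjustment, 2 members in KO (Cspg4 and Olig2) and 3 in WT (Cspg4, Olig2 and Enpp6) had a p under 0.05, where 17.7% of all genes in KO and 15.9% in WT had one. DESeq2 called 0 members in both, and 469 of all genes in KO and 330 in WT. Of all genes, 0.0541% were called higher and 0.018% lower at night in KO, and 0.131% higher and 0.144% lower in WT. Cspg4 was higher at night by 0.24 ± 0.0701 in KO (adjusted p = 0.102) and by 0.20 ± 0.0712 in WT (0.194). Olig2 was higher by 0.32 ± 0.0957 in KO (1.25-fold, adjusted p = 0.106) and by 0.20 ± 0.0964 in WT (0.313). KO_day 1, whose time field says night, had the highest Cspg4 and Olig2 of its group, and without it both passed in KO, at 0.29 (adjusted p = 0.0410) and 0.43 (0.0189). This was the only 1 of 28 alternatives in which either passed, and with the time field as grouping the changes were 0.087 (0.834) and 0.088 (0.866). Those 28 count the fit without WT_day 3 both as a named setting and among the left-out libraries. Bmp4 had the largest change in WT, 0.40 ± 0.193 (adjusted p = 0.318), and 0.13 ± 0.194 in KO.

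The genotype difference itself was set against time by the interaction. No gene passed in edgeR (0% of 22181), with 4910 genes and 1 member under an unadjusted p of 0.05, while DESeq2 called 858 genes and no member. That member was Enpp6, with an interaction of -0.37 ± 0.132 (unadjusted p = 0.0110, adjusted p = 0.122). The night effect of the double deletion on Enpp6 is thus not shown to differ from its day effect at this threshold. For Cspg4 the interaction was 0.044 ± 0.0999, with a 95% interval from -0.16 to 0.25.

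Gene length moved with the night contrast across the whole table, so the members were placed in it. In KO_night against WT_night the median log2 change was 0.078 for genes that span up to 3 kb, 0.081 from 3 to 10 kb, 0.040 from 10 to 30 kb, -0.040 from 30 to 100 kb and -0.18 above 100 kb. Of the 2701 genes above 100 kb, 840 fell and 11 rose. These counts carry the limits of the night contrast, whose 2649 calls over all genes became 6 with agreeing time labels, 4 with the time field and 11 without WT_night 1, 2 and 3, and 122 to 4355 with 1 library left out. Enpp6, which spans 110 kb, had a night change of -0.18, at that median. Olig1 and Olig2, at 2.16 and 3.22 kb, changed by 0.17 and 0.15, above their class medians. Gpr17 (6.64 kb) changed by 0.079, near its class median, and Sox10 (10.3 kb) by 0.12, above its class median. Cspg4 (34.8 kb), Pdgfra (45.9 kb) and Bcas1 (80.9 kb) had positive changes of 0.21, 0.068 and 0.10 in a class whose median was negative. Bmp4 (7.15 kb), at -0.21, lay on the other side of 0 from its class. The part of length in these changes was not tested.

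**Figure D4:**
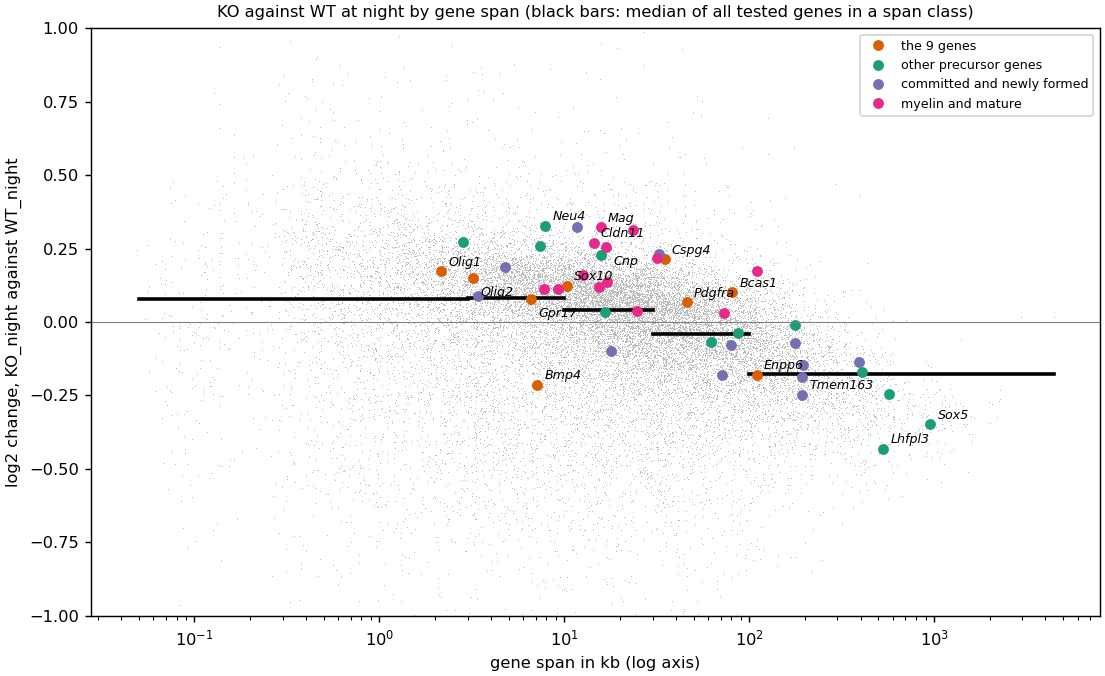
Log2 change of KO_night against WT_night (vertical axis, shown from -1 to 1) against gene span in kb (horizontal log axis) for all tested genes (grey), the 9 genes and 3 lists of lineage genes, with black bars at the median of each length class. The bars run from 0.078 for the shortest class to -0.18 above 100 kb; list genes are named where they passed.

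Other genes used as markers of the lineage were read from 3 lists, chosen like the members with earlier results known. Their RNA in bulk tissue was not assigned to a cell type. Of all tested genes, 1.31% passed averaged over both times, 0.113% by day, 11.9% at night and 0.275% for night against day in WT. DESeq2 called 894, 166, 3307 and 330 of all genes in these contrasts. Of 12 further precursor genes none passed averaged over both times (3 with an unadjusted p under 0.05, 0 by DESeq2), and their median change was 0.0093. At night 1 rose and 2 fell. Neu4, a sialidase of precursors that spans 7.88 kb, rose by 0.33 ± 0.101 (adjusted p = 0.0385), with 7.53 to 9.43 CPM in KO_night and 5.63 to 7.47 CPM in WT_night. Lhfpl3 (530 kb) fell by 0.43 ± 0.103 (0.0186) and Sox5 (954 kb), a SOX factor also made by neurons, fell by 0.35 ± 0.102 (0.0322), both in the length class with the median of -0.18. These night calls were lost without KO_night 2, KO_night 3, WT_night 1 or WT_night 3 (adjusted p = 0.0527 to 0.136); those of Neu4 and Sox5 were also lost without WT_night 2 (0.0829 and 0.0572) and that of Neu4 without KO_night 5 (0.0885). Of 12 genes of committed and newly formed oligodendrocytes 2 rose averaged over both times. Sox8, a SOX factor related to Sox10, rose by 0.18 ± 0.0451 (adjusted p = 0.0484), and Myrf, the factor that drives myelin genes, rose by 0.22 ± 0.0551 (0.0468). Sox8 and Myrf passed in 7 and 6 of the 20 fits that leave out 1 library. Their calls were also lost without WT_day 3 (0.0523 and 0.0609), with agreeing time labels (0.125 and 0.199), with the time field (0.115 and 0.1) and without WT_night 1, 2 and 3 (0.358 and 0.331). By day 10 of these 12 genes were higher in KO and at night 8 were lower, with medians of 0.10 and -0.087. Tmem163 (193 kb), a zinc transporter, fell at night by 0.25 (0.0141, but 0.0533 without WT_night 3), and Nkx6-2, a homeobox factor of myelinating cells, rose at night against day in WT by 0.39 (0.0262, but 0.0524 to 0.0804 without WT_day 1, 3 or 5 or WT_night 2, 0.297 with the time field and 0.0586 without WT_night 1, 2 and 3). All 13 tested myelin genes were higher in KO both averaged and at night (medians 0.14 and 0.16). Mag, the myelin-associated glycoprotein, rose averaged by 0.26 ± 0.0568 (0.0300, but 0.0505 to 0.0663 without WT_day 2, WT_night 1, KO_day 4, KO_day 5 or KO_night 3, 0.0817 with the time field and 0.222 without WT_night 1, 2 and 3), and at night Mag, Cnp and Cldn11 rose by 0.32, 0.25 and 0.27 (0.0204, 0.0205 and 0.0233). These 3 night calls were lost without WT_night 1, WT_night 3, KO_night 2 or KO_night 3, at 0.0537 to 0.0816, and each of the 7 night calls of KO against WT in these 3 lists was lost when the 6 libraries with conflicting time labels were left out, with the time field as grouping and without WT_night 1, 2 and 3. All 7 changes kept their sign in these 3 fits. With agreeing time labels Neu4 changed more, by 0.40, while the others changed less, such as Cldn11 at 0.18. Among the other cell types, all 8 astrocyte genes were higher in KO at night and Aldh1l1 and Fgfr3 rose, 6 of 7 microglia genes were higher and P2ry12 fell, and none of 5 tested neuron genes passed (2 with an unadjusted p under 0.05, 0 by DESeq2). The adjusted p was 0.0232 for Aldh1l1, 0.0260 for Fgfr3 and 0.0239 for P2ry12, and these 3 calls were lost with agreeing time labels (0.312, 0.236 and 0.445), with the time field as grouping (0.918 each) and without WT_night 1, 2 and 3 (0.359, 0.441 and 0.359). Without 1 library, each was also lost without WT_night 1 or WT_night 3, those of Aldh1l1 and P2ry12 without KO_night 2, and that of Fgfr3 without WT_night 5 or KO_night 3 (0.0513 to 0.0896).

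Of the pathways that act on precursors, PDGF signalling was read first, and 1 of its ligands fell. Pdgfd, whose product acts on PDGF receptor beta, had 26.8, 23.7, 22.7, 22.1 and 21.04 CPM in KO_day, against 31.4, 31.9, 32.8, 31.5 and 36.5 CPM in WT_day. The day groups do not overlap. Pdgfd fell by 0.50 ± 0.0657 by day (1.41-fold, adjusted p = 0.000384) and by 0.32 ± 0.0467 averaged (0.00113), and both calls held in all 28 alternative fits and left-out libraries. At night it averaged 23.8 ± 1.89 CPM in KO_night and 26.0 ± 1.75 CPM in WT_night (change -0.13, adjusted p = 0.180), and in WT it fell at night against day by 0.33 ± 0.0657 (0.0262), which passed in 12 of the 20 fits that leave out 1 library but not with the time field (0.119) or without WT_night 1, 2 and 3 (0.192). The interaction of Pdgfd was 0.36 ± 0.0934 (adjusted p = 0.0638). Pdgfa, the main ligand of the receptor encoded by Pdgfra, averaged 30.1 CPM in KO_day and 29.9 CPM in WT_day, and its averaged change was 0.062 ± 0.0309 (0.267). Pdgfb, Pdgfc and Pdgfrb did not pass in edgeR in any contrast. Of the 5 genes of this list, DESeq2 called 2 for night against day in WT, where edgeR called 1. In the interaction DESeq2 called 1 and edgeR 0. Over all genes DESeq2 called 330 and 858 in these 2 contrasts.

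Of the BMP genes, Bmp6 fell at night by 0.58 ± 0.179 (adjusted p = 0.0375), with 9.43 to 14.1 CPM in KO_night and 15.4 to 20.7 CPM in WT_night, and it spans 155 kb. The call was lost without WT_night 1, 2, 3 or 5, KO_night 2 or KO_night 3 (0.0534 to 0.102), with agreeing time labels (0.341), with the time field (0.918, change -0.33) and without WT_night 1, 2 and 3 (0.437). None of the 7 BMP receptors and Smads, 6 BMP inhibitors and 4 Id genes that BMP signals induce passed in edgeR or DESeq2 in any contrast; averaged over both times, 0, 2 and 0 of them had an unadjusted p under 0.05. Among 7 Notch genes, Hes5, a Notch target that holds back precursor maturation and is also made by astrocytes, rose averaged by 0.39 ± 0.0791 (0.0223), a call lost without KO_night 3 (0.0522), with the time field as grouping (0.115) and without WT_night 1, 2 and 3 (0.222). Notch1 rose by day by 0.25 ± 0.0501 (0.0480), with 32.3 to 34.4 CPM in KO_day and 26.8 to 30.8 CPM in WT_day, and at night against day in WT by 0.29 ± 0.0502 (0.0148). The day call of Notch1 held in 12 of the 20 fits that leave out 1 library, and the night call in 19. The day call was also lost with agreeing time labels (0.0682), with the time field (0.0502) and without WT_night 1, 2 and 3 (0.0603), and the night call with the time field (0.22), without WT_day 1 (0.0501) and without WT_night 1, 2 and 3 (0.0874). None of 8 tested genes of cell division passed in edgeR or DESeq2 in any contrast (1 with an unadjusted p under 0.05 averaged over both times). At night 5 of them were higher in KO and 3 lower, with a median change of 0.021, and the lowest was Mki67, a marker of dividing cells, at 1.01 ± 0.191 CPM in KO_night and 1.43 ± 0.388 CPM in WT_night (change -0.51, adjusted p = 0.0734).

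The members did not move as 1 block from library to library. After subtraction of group means, 31 of their 36 pairs had a positive Pearson correlation over the 20 libraries, with a median of 0.264, and none passed adjustment over the 36. The highest were Enpp6 with Bcas1 (r = 0.646, rho = 0.588, permutation p = 0.0067 and 0.015, adjusted 0.23 and 0.17), Olig2 with Bmp4 (r = 0.627, rho = 0.588, adjusted 0.23 and 0.17) and Sox10 with Bcas1 (r = 0.542, rho = 0.600, adjusted 0.23 and 0.17). Without the 2 libraries farthest from the median of the first gene, r was 0.624, 0.635 and 0.593 for these 3 pairs. Pdgfra and Cspg4 correlated at 0.470 and Olig1 and Olig2 at 0.419. All genes of a library share its depth and its scaling factor.

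Against the means of 9 lists, 2 of 81 pairs passed by Pearson's r, Bmp4 with fibroblast and meningeal genes and Olig2 with endothelial genes. Olig2 followed the 7 endothelial genes at r = 0.840 and rho = 0.820 (permutation p = 1e-04 and 1e-05, adjusted 0.004 and 0.0004), and at 0.694 without the 2 libraries farthest from the median of the list. The summed endothelial level was 127 to 148 CPM in KO_night and 134 to 138 CPM in WT_night, and 114 to 141 CPM in KO_day and 119 to 126 CPM in WT_day. By rho alone, Pdgfra also passed with pericyte and smooth muscle genes (rho = 0.674, permutation p = 0.002, adjusted 0.04, and r = 0.604, adjusted 0.099, or 0.492 without the 2 farthest libraries) and Enpp6 with astrocyte genes (rho = 0.735, permutation p = 0.0012, adjusted 0.033, and r = 0.643, adjusted 0.13, or 0.574). Pdgfra, Cspg4 and Olig1 ran against the list of other precursor genes, at r = -0.504, -0.323 and -0.384, none of which passed.

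**Figure D5:**
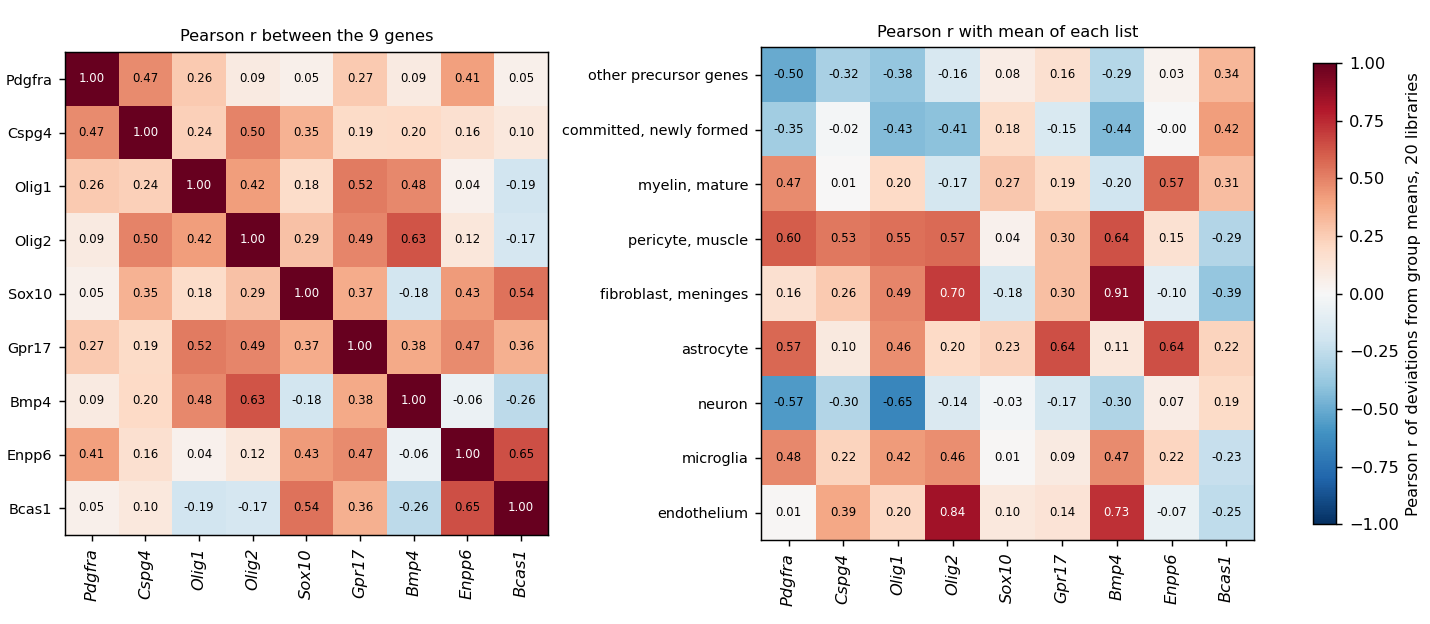
Pearson r of deviations from group means over 20 libraries, between the 9 genes (left) and between each gene (columns) and the mean of each of 9 lists (rows, right), coloured from -1 (blue) to 1 (red). The strongest values on the right are Bmp4 with fibroblast and meningeal genes (0.91) and Olig2 with endothelium (0.84).

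Among 13937 genes with a mean of at least 1 CPM, those most like Pdgfra across the libraries were Cdv3 (r = 0.856), Harbi1 (0.790), Mrm3 (0.759), Dcaf8 (0.755) and Myl4 (0.752). After Lims2, those most like Gpr17 were Dnajb1 (0.873), Kctd20 (0.854), Tent5a (0.844) and Rrad (0.832). For Bmp4, a gene added to this comparison after its values were seen, they were Col3a1 (0.927), Osr1 (0.906), Lsp1 (0.893), Aldh1a2 (0.885) and Pde5a (0.884).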

How the data were processed

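Each library has a deposited table of raw counts per gene. HISAT2, featureCounts and the build mm10 are named in the submitters' processing notes, and versions, annotation and strand setting are not given in the sources used here. The table of WT_night 3 has another layout but holds the same kind of deposited counts. The time of KO_day 5, whose title has no time letter, was taken from its time field, and WT_day 5 carries a title number that another library of its group also has. Symbols and positions come from GENCODE M21 (GRCm38), which matched 53706 of 53801 identifiers.

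All 20 libraries entered a single edgeR 4.0.16 model of 4 group means (R 4.3.3). It used TMM factors, dropped genes by filterByExpr (at least 10 counts) and tested contrasts by quasi-likelihood. Benjamini-Hochberg adjustment ran over 22181 genes, and a gene passed under 0.05. The verbs rose and fell are kept for genes that passed. The scripts were tested on simulated data. Alternatives were RLE scaling, DESeq2 1.42.0, no filter, a replicate block, other sets or groupings of libraries, and each library left out.

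Correlations use log2 CPM (prior count 2) minus group means, with 100000 permutations of libraries within groups. Chi-square per degree of freedom was 5.58 to 53.7 between libraries of a group, above counting noise in each of the 40 pairs within groups. The members and lists were chosen with earlier results of these data known. Named list genes are those that passed, with up to 4 others of a list by p.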

Additional observations from a re-analysis of the deposited data

Results flagged for a closer look

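A library at the end of its group stood apart from the other 4 by more than Dixon's 95% value of 0.71 in 4 of the 36 combinations of member and group, where chance alone gives about 1 in 20. Olig2 was highest in KO_night 1 at 28.0 CPM, with 20.98 to 22.8 CPM in the other 4 KO_night libraries. Sox10 was highest in WT_night 4 at 21.2 CPM, with 17.5 to 18.6 CPM in the others. Enpp6 was lowest in WT_day 5 at 5.83 CPM, with 6.61 to 6.78 CPM in the others. Bcas1 was lowest in WT_night 2 at 51.0 CPM, with 58.9 to 59.6 CPM in the others.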

How the results depend on the processing

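Cspg4, the member that passed at night, kept a positive change in every alternative but passed in 6 of 28. In these 28 the fit without WT_day 3 is counted again among the left-out libraries. At night 0 members passed under RLE scaling, without a filter, with the replicate block, without WT_day 3, with the 14 libraries of agreeing time labels, with the time field as grouping and without WT_night 1, 2 and 3. The last of these was chosen after seeing the data. Averaged over both times, 1 member (Cspg4) passed under DESeq2 and 1 without a filter. Replicate numbers do not pair the libraries (correlations of deviations -0.167 to 0.303), and the block ended the call of 1 member, Cspg4 at night (0.0574), and among the listed genes those of Neu4 (0.0521) and Sox5 (0.0589) at night, Sox8 (0.0672) and Myrf (0.0567) averaged over both times, and Anpep for night against day in WT (0.0749). Over the members and the other genes named, 514 values kept direction and call, 79 lost their call, 2 gained one and 29 reversed under the other alternatives; with 1 library left out, 1368 kept both, 135 lost their call, 9 gained one and 48 reversed. The cause was not tested. Averaged over both times, the log2 change turned for Olig2 to -0.034 and Enpp6 to -0.026 with the 14 libraries of agreeing time labels, Enpp6 to -0.0081 with the time field as grouping and Gpr17 to -0.13 and Enpp6 to -0.067 without WT_night 1, 2 and 3. By day, the log2 change turned for Olig2 to -0.11, Gpr17 to 0.013 and Bmp4 to -0.10 with the 14 libraries of agreeing time labels, Gpr17 to 0.11 with the time field as grouping and Sox10 to -0.014, Gpr17 to 0.029 and Bcas1 to 0.0006 without WT_day 3. At night, the log2 change turned for Olig2 to -0.0041 and Gpr17 to -0.053 with the time field as grouping and Gpr17 to -0.26 without WT_night 1, 2 and 3. For night against day in WT, the log2 change turned for Bcas1 to 0.0023 without WT_night 1, 2 and 3, Sox10 to -0.023 without WT_day 3, Olig1 to -0.0013 without a filter and Olig1 to -0.0029 with the replicate block. For night against day in KO, the log2 change turned for Olig1 to -0.059 and Enpp6 to 0.045 with the time field as grouping. For the interaction, the log2 change turned for Cspg4 to -0.061, Olig1 to -0.12, Olig2 to -0.17 and Gpr17 to -0.16 with the time field as grouping, Olig1 to -0.048, Olig2 to -0.025 and Gpr17 to -0.26 without WT_night 1, 2 and 3 and Cspg4 to -0.0006 without WT_day 3. With 1 library left out, values fell on both sides of 0 averaged over both times for Bmp4 (-0.13 to 0.0091), Enpp6 (-0.024 to 0.0444) and Gpr17 (-0.0047 to 0.0951); by day for Bcas1 (-0.023 to 0.0352), Bmp4 (-0.0398 to 0.23), Gpr17 (-0.0478 to 0.0577), Olig2 (-0.0774 to 0.0948) and Sox10 (-0.014 to 0.0781); at night for Gpr17 (-0.0084 to 0.18); in night against day in WT for Bcas1 (-0.0498 to 0.0048), Olig1 (-0.028 to 0.0497) and Sox10 (-0.023 to 0.0661); in night against day in KO for Bmp4 (-0.0510 to 0.22); in the interaction for Cspg4 (-0.023 to 0.0918) and Gpr17 (-0.0075 to 0.18).

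The number of all genes that passed moved more. For KO against WT averaged over both times it was 894 under DESeq2, 58 with agreeing labels, 30 with the time field and 19 without WT_night 1, 2 and 3, against 291. By day it was 166 under DESeq2, 60 without a filter, 48 with the block, 89 with agreeing labels and 149 with the time field, against 25. At night it was 1689 with the block, 6 with agreeing labels, 4 with the time field and 11 without WT_night 1, 2 and 3, against 2649. For night against day in WT it was 330 under DESeq2, 108 without a filter, 12 without WT_day 3, 104 with agreeing labels, 0 with the time field and 9 without WT_night 1, 2 and 3, against 61. In KO it was 469, 70, 8, 0 and 138 under DESeq2, without a filter, without WT_day 3, with the time field and without WT_night 1, 2 and 3, against 16. For the interaction it was 858 under DESeq2, 105 without a filter and 1 without WT_night 1, 2 and 3, against 0. With 1 library left out these counts ranged over 47 to 1265 averaged, 15 to 73 by day, 122 to 4355 at night, 9 to 179 and 0 to 328 for night against day in WT and KO, and 0 to 1555 for the interaction; members passed in numbers of 0 to 2 averaged, at night and for night against day in KO. Depth limits Bmp4 most, at 30 to 110 counts per library.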
